A study of Mus musculus with 12 samples.

Results

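The genes described here are the 3 D-type cyclins and 7 inhibitors of the cell cycle, followed on 12 microarrays of cumulus cells, which derive from granulosa cells and surround the oocyte, from mice. They are Ccnd1, Ccnd2 and Ccnd3, the inhibitor genes Cdkn1a, Cdkn1b, Cdkn1c and Cdkn2c, and the growth arrest genes Gadd45a, Gadd45b and Gadd45g. They were looked up by symbol in the array annotation, and where a gene had several probe sets the one that was brightest on average over the arrays was used. Of the 10 genes, 9 had a row with 1 symbol, out of 19938 such genes on the array. The only row listing Cdkn1a (p21) also carries a second symbol, so its values were assigned to neither gene and are not given. Cdkn1b had 2 probe sets, and the other 8 genes had 1 each.

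All 3 groups came from whole cumulus-oocyte complexes of 129SV females 21 to 26 days old, which had received 5 IU of equine chorionic gonadotropin 44 h before. The complexes were gathered in medium with 1 micromolar cilostamide, a phosphodiesterase inhibitor, and cultured for 8 h with their oocytes in place, 20 to a 50 microlitre drop. The oocytes were then stripped off and discarded, and the RNA is that of the cumulus cells left. The FSH/EGF group (4 arrays) had 50 mIU/ml follicle-stimulating hormone and 10 ng/ml epidermal growth factor with 293H control medium at 0.125% by volume. The GDF9 group (4 arrays) had 20 ng/ml growth differentiation factor 9, a factor that oocytes secrete, and the labels name no 293H medium for it. If that medium was absent, treatment and medium cannot be told apart in comparisons with this group. The control group (4 arrays) had 293H control medium at 0.125% by volume. Each array measured RNA pooled from 2 of 8 independent extracts, so that the p-values describe the spread between pools. FSH and EGF were given together, and their separate effects cannot be told apart.

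D-type cyclins bind the kinases CDK4 and CDK6, which phosphorylate the retinoblastoma protein and let E2F factors switch on the genes of S phase. Inhibitors of the INK4 family, to which the Cdkn2c product p18 belongs, bind those kinases directly, while the CIP/KIP proteins p21, p27 and p57 bind assembled complexes of cyclins and kinases. GADD45 proteins are small stress-induced proteins that bind PCNA, p21 and the kinase MAP3K4. In rodent granulosa cells cyclin D2 is the D-type cyclin known for the proliferative response to FSH, and the ovulatory surge is known to end division of these cells.

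Of 9 measured granulosa and cumulus markers, Foxl2 stood at 8.05 to 8.46 on the FSH/EGF arrays, 8.62 to 9.21 on the GDF9 arrays and 8.82 to 9.39 on the control arrays (log2 values). With FSH/EGF 8 of these 9 markers were lower than in controls, with a median difference of -1.94 over the 9. Fshr, the FSH receptor gene, showed the largest fall among them (-3.14), Foxl2 was at -0.71, and Amh was not called (-0.36 ± 0.31). Of all genes, 36.8% were called between FSH/EGF and control (limma adjusted p under 0.05), the share to set beside each marker count here. The list mean was 7.56 to 7.72 on FSH/EGF arrays, 9.16 to 9.23 on GDF9 arrays and 9.09 to 9.32 on control arrays, and its part in the differences below was not tested. The medians of 15 oocyte markers ran from 4.58 to 5.12 on FSH/EGF arrays, from 4.57 to 4.80 on GDF9 arrays and from 4.73 to 5.90 on control arrays. The highest value was that of control array 4, where the oocyte gene Padi6 was at 7.05, and FSH/EGF array 3 was the highest of its group at 5.12. The mean levels of the 8 leukocyte markers lay between 4.80 and 4.91 on FSH/EGF arrays and between 4.83 and 5.04 on control arrays, and 1 of them, Cd68, was higher with FSH/EGF (0.50 ± 0.09). Of the 8 endothelial markers 2 were higher with FSH/EGF, Cdh5 by 3.18 and Tek by 0.29, and the other 6, Pecam1 and Vwf among them, were not called. Of the 8 surface epithelial markers, Krt8 and Krt18 rose and Msln and Muc16 fell, and of 7 theca and stroma markers 3 fell, among them Acta2 (-2.34). In RNA from a mixed sample, fewer cells of a type and less RNA per cell cannot be told apart.

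Under FSH/EGF the D-type cyclins and the inhibitors did not move as 1 block. Relative to control medium, Ccnd2 fell to 0.265 times its control level, Gadd45g rose 3.31-fold, and Ccnd3, Gadd45b and Cdkn2c rose by 1.74-fold, 1.69-fold and 1.53-fold. These were the 5 of 9 genes past an adjusted p of 0.05 in limma, a linear model fitted to all rows of the table, with 4 higher and 1 lower. In the same comparison 29% of all 35399 rows were past the threshold (16.5% higher and 12.5% lower), and 36.8% of the genes. The median difference over the 9 genes was 0.392, against -0.0719 over all genes. Between FSH/EGF and control the arrays of 6 of the 9 genes did not overlap, as was the case for 33.2% of all rows.

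**Figure D1:**
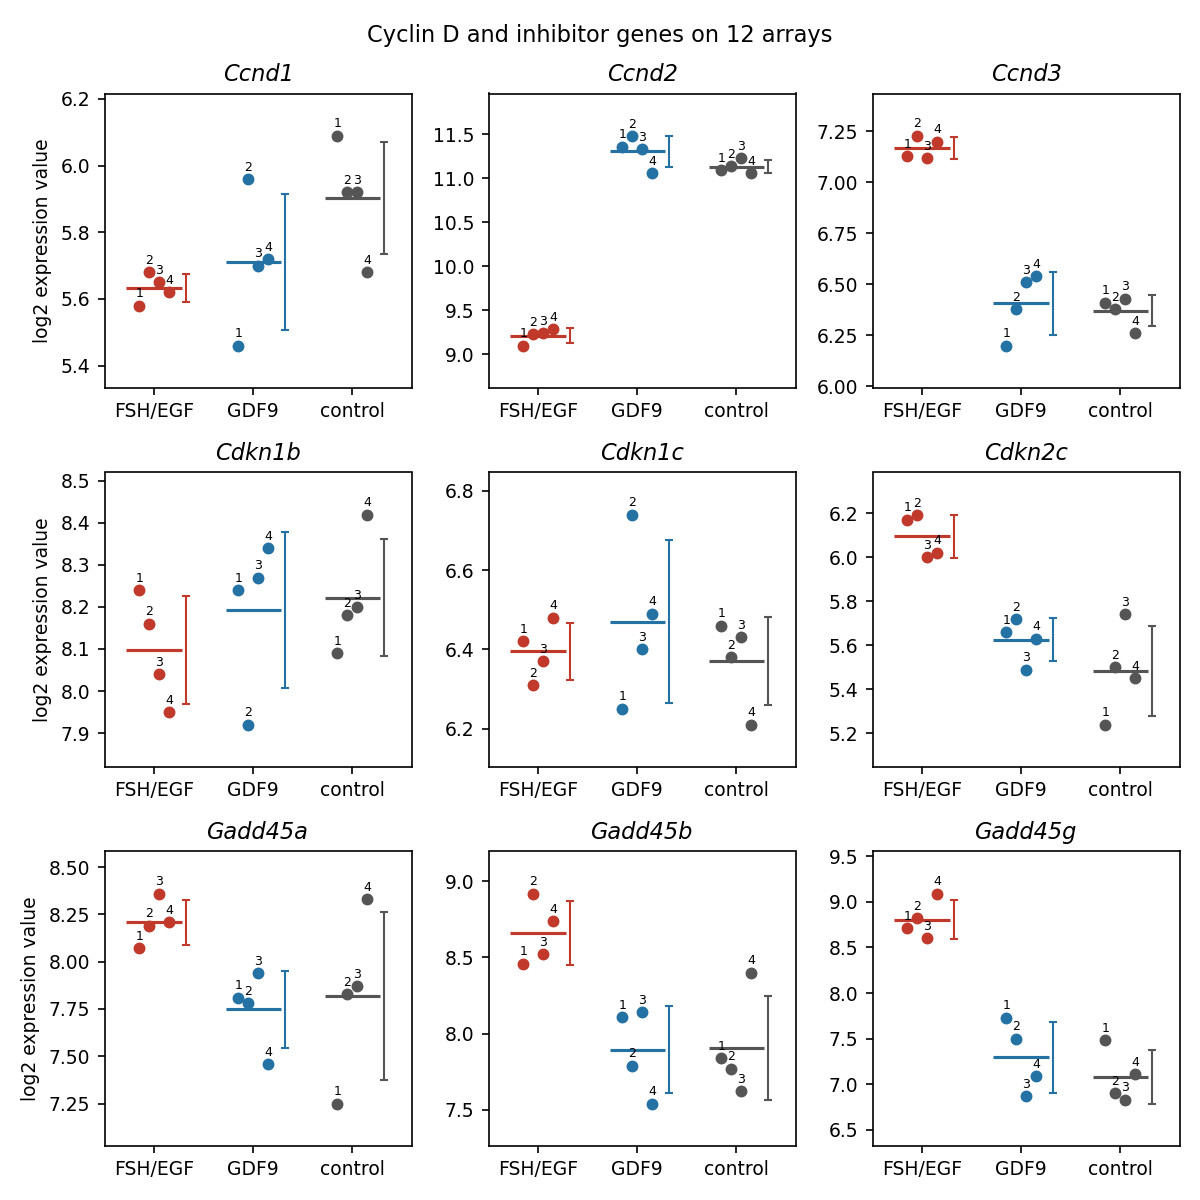
Log2 expression values (vertical axes, 1 scale per gene) of the 9 genes in FSH/EGF, GDF9 and control cultures. Points are single arrays numbered by replicate, horizontal lines are means and bars are SD over 4 arrays. Ccnd2 sits between 9.10 and 9.29 with FSH/EGF, below all GDF9 and control arrays, and Gadd45g between 8.60 and 9.09, above all of them.

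Among the cyclins, Ccnd2, which encodes cyclin D2, showed the largest change of all 9 genes. Its log2 values were 9.10, 9.23, 9.24 and 9.29 on the FSH/EGF arrays, 11.36, 11.48, 11.33 and 11.06 on the GDF9 arrays, and 11.09, 11.14, 11.23 and 11.06 on the control arrays. All 4 FSH/EGF arrays lay far below the other 8, and GDF9 and control arrays overlapped. The difference between FSH/EGF and control was -1.92 ± 0.09 on the log2 scale (SE, n = 4 and 4, 95% interval -2.11 to -1.72, limma adjusted p = 7.9e-09). In order of decrease it ranked 123 among the 19938 genes.

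Ccnd3, which encodes cyclin D3, went the other way. Its values were 7.13, 7.23, 7.12 and 7.20 with FSH/EGF, 6.20, 6.38, 6.51 and 6.54 with GDF9, and 6.41, 6.38, 6.43 and 6.26 in controls. The FSH/EGF arrays again stood apart from the other 8, here on the upper side. The difference from control was 0.80 ± 0.08 (limma adjusted p = 1.06e-05).

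Ccnd1, the gene of cyclin D1, was not past the threshold. It measured 5.58, 5.68, 5.65 and 5.62 with FSH/EGF, 5.46, 5.96, 5.70 and 5.72 with GDF9, and 6.09, 5.92, 5.92 and 5.68 in controls. Averaged over all arrays Ccnd1 was at 5.75, percentile 49.3 among all genes. The FSH/EGF arrays were the most alike (SD 0.04, against 0.21 with GDF9 and 0.17 in controls). The highest of them adjoined the lowest control at 5.68. The difference between FSH/EGF and control was -0.27 ± 0.11 (95% interval -0.50 to -0.04, limma adjusted p = 0.0772). It stayed short of the threshold in 9 of 12 fits with 1 array left out and in 10 of 12 other alternatives (limma adjusted p up to 0.18). It passed the threshold without control array 4 (-0.34, limma adjusted p = 0.0307), with array weights (-0.24, limma adjusted p = 0.0307), with only the 2 groups in the fit (limma adjusted p = 0.0467), and without GDF9 array 1 (limma adjusted p = 0.0439) or GDF9 array 2 (limma adjusted p = 0.0455), which enter this comparison only through the spread.

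Of the kinase inhibitors that the design could read, the INK4 gene rose and both CIP/KIP genes were not called. Cdkn2c, which encodes p18, had values of 6.17, 6.19, 6.0 and 6.02 with FSH/EGF, 5.66, 5.72, 5.49 and 5.63 with GDF9, and 5.24, 5.50, 5.74 and 5.45 in controls. Averaged over all arrays Cdkn2c was at 5.74, percentile 49.0 among all genes. Every FSH/EGF array was above every array of the other groups. The difference from control was 0.61 ± 0.10 (95% interval 0.40 to 0.83, limma adjusted p = 0.00051).

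Cdkn1b encodes p27, known from rodent ovaries as an inhibitor that accumulates when granulosa cells luteinize. Its values were 8.24, 8.16, 8.04 and 7.95 with FSH/EGF, 8.24, 7.92, 8.27 and 8.34 with GDF9, and 8.09, 8.18, 8.20 and 8.42 in controls, and the groups overlapped. The FSH/EGF minus control difference was -0.13 ± 0.11, with a 95% interval from -0.36 to 0.11 (limma adjusted p = 0.398). The other probe set of Cdkn1b was at -0.08 ± 0.15 (limma adjusted p = 0.697). After renewed quantile normalization the first probe set stood at -0.35 and was past the threshold (limma adjusted p = 0.00729). Under that scaling the median of all genes moved by 0.0295, and the genes described here moved by -0.223 to 0.0421. Gadd45a, Gadd45b and Gadd45g were lowered as well, as given below.

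Cdkn1c encodes p57, an imprinted inhibitor of the same family as p27. It measured 6.42, 6.31, 6.37 and 6.48 with FSH/EGF, 6.25, 6.74, 6.40 and 6.49 with GDF9, and 6.46, 6.38, 6.43 and 6.21 in controls. All 3 groups overlapped, and the FSH/EGF minus control difference was 0.03 ± 0.10 (95% interval -0.19 to 0.24, limma adjusted p = 0.862). Its sign turned under renewed quantile normalization, to -0.03.

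Of the 3 GADD45 genes, Gadd45g and Gadd45b rose with FSH/EGF and Gadd45a was not called. Whether the 3 differences differ from each other was not tested. Their upstream sequences are shown because 2 of these 3 paralogs carry rises described here. The bases are the 250 before the RefSeq start site on build GRCm38.p6, written 5′ to 3′ on the gene's strand. Capitals mark matches to the letters of the TATA box (TATAAA), of the box named CCAAT after its letters, and of the E-box (CACGTG).
Gadd45g, chr13:51846425-51846674, plus strand: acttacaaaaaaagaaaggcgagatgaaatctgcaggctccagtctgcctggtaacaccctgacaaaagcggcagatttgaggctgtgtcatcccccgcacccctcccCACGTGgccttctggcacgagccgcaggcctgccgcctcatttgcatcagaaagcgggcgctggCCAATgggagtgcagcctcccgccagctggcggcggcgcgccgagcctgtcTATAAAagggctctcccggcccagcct
Gadd45b, chr10:80929841-80930090, plus strand: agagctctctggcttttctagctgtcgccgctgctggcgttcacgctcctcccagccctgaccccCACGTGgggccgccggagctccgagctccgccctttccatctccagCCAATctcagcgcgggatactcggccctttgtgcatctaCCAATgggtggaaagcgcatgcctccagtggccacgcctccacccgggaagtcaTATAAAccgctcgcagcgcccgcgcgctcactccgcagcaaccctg
Gadd45a, chr6:67037408-67037657, minus strand: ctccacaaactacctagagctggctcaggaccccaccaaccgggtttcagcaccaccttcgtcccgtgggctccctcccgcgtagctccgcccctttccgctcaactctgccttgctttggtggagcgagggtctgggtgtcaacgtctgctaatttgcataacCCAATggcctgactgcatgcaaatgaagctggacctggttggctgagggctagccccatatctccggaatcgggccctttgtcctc

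The upstream windows of Gadd45g and Gadd45b each held a TATAAA, starting 27 and 46 bases before the start site, and an E-box, starting 142 and 185 bases before it. The window of Gadd45a held neither. A TATAAA was present in 12.4% and an E-box in 6.0% of all 32851 RefSeq windows of this length. A CCAAT box was found in the windows of all 3 genes (78 bases before the start in Gadd45g, 100 and 139 in Gadd45b, 86 in Gadd45a) and in 33.8% of all windows. Both strands were searched, and these matches describe letters and not bound sites. Whether they bear on the differences in expression was not tested. GC content was 62.0% for Gadd45g, 65.2% for Gadd45b and 59.2% for Gadd45a, with a median of 52.4% over all windows.

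Of the 10 genes of the rule, 7 had an entry in the RefSeq table, with 10 start sites between them, including those of Cdkn1a. Besides the motifs above, the search covered the GC box (GGGCGG), the CRE (TGACGTCA) and its half-site (TGACG, contained in the CRE), AP-1 (TGANTCA), FOXO (TGTTTAC), E2F (TTTNGCGC), STAT (TTCNNNGAA) and EGR (GCGTGGGCG). GC boxes were found at 7 of the 10 start sites and in 32.7% of all windows. Among the GADD45 windows, where they are not marked, Gadd45a (163 bases before the start) and Gadd45b (158) held a GC box. Gadd45g held none. Both start sites of Ccnd3 held a CRE half-site, which 17.8% of all windows hold, and 1 of them held the FOXO letters, found in 3.2%. Cdkn2c held the EGR letters 44 bases before 1 start site, overlapping a GC box, and 0.5% of all windows hold them. The letters of the CRE (1.5% of all windows), AP-1 (6.7%), E2F (1.1%) and STAT (7.0%) were in 0 of the 10 windows.

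Gadd45g had values of 8.71, 8.82, 8.60 and 9.09 with FSH/EGF, 7.73, 7.50, 6.87 and 7.09 with GDF9, and 7.48, 6.90, 6.83 and 7.11 in controls. The FSH/EGF arrays were above all other arrays, and the GDF9 and control arrays overlapped. The difference from control was 1.73 ± 0.19 (95% interval 1.31 to 2.14, limma adjusted p = 2.08e-05), and it ranked 327 of the 19938 genes from the top. Renewed quantile normalization lowered this difference to 1.52.

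Gadd45b measured 8.46, 8.92, 8.52 and 8.74 with FSH/EGF, 8.11, 7.79, 8.14 and 7.54 with GDF9, and 7.84, 7.77, 7.62 and 8.40 in controls. Control array 4 lay just under the lowest FSH/EGF array, and the other 3 controls were at or below 7.84. The difference from control was 0.75 ± 0.18 (95% interval 0.36 to 1.14, limma adjusted p = 0.00701). Without control array 4 it was 0.92, and renewed quantile normalization lowered it to 0.54 (limma adjusted p = 0.0395).

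Gadd45a, the member of the family that p53 is known to induce, measured 8.07, 8.19, 8.36 and 8.21 with FSH/EGF, 7.81, 7.78, 7.94 and 7.46 with GDF9, and 7.25, 7.83, 7.87 and 8.33 in controls. The controls spread widely (SD 0.45, against 0.12 with FSH/EGF), with array 1 the lowest and array 4 the highest. The FSH/EGF minus control difference was 0.39 ± 0.18 (95% interval -0.01 to 0.79, limma adjusted p = 0.129). Without control array 1 it was 0.20 (limma adjusted p = 0.32), and after renewed quantile normalization 0.17 (limma adjusted p = 0.533). Without control array 4 it was 0.56 ± 0.16 and past the threshold (limma adjusted p = 0.0187), and without control array 4 and FSH/EGF array 3 it was 0.51 (limma adjusted p = 0.0525).

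On control array 4, where Gadd45a and Gadd45b were the highest of their group, the median of the oocyte markers was 5.90, against 4.73 to 5.15 on the other controls. The part of oocyte RNA in these 2 values was not tested. On FSH/EGF array 3, the highest of its group in Gadd45a at 8.36, the oocyte median was 5.12, against 4.58 to 4.67 on the other FSH/EGF arrays. Gadd45b on that array was 8.52, below arrays 2 and 4 and above array 1 of its group.

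**Figure D2:**
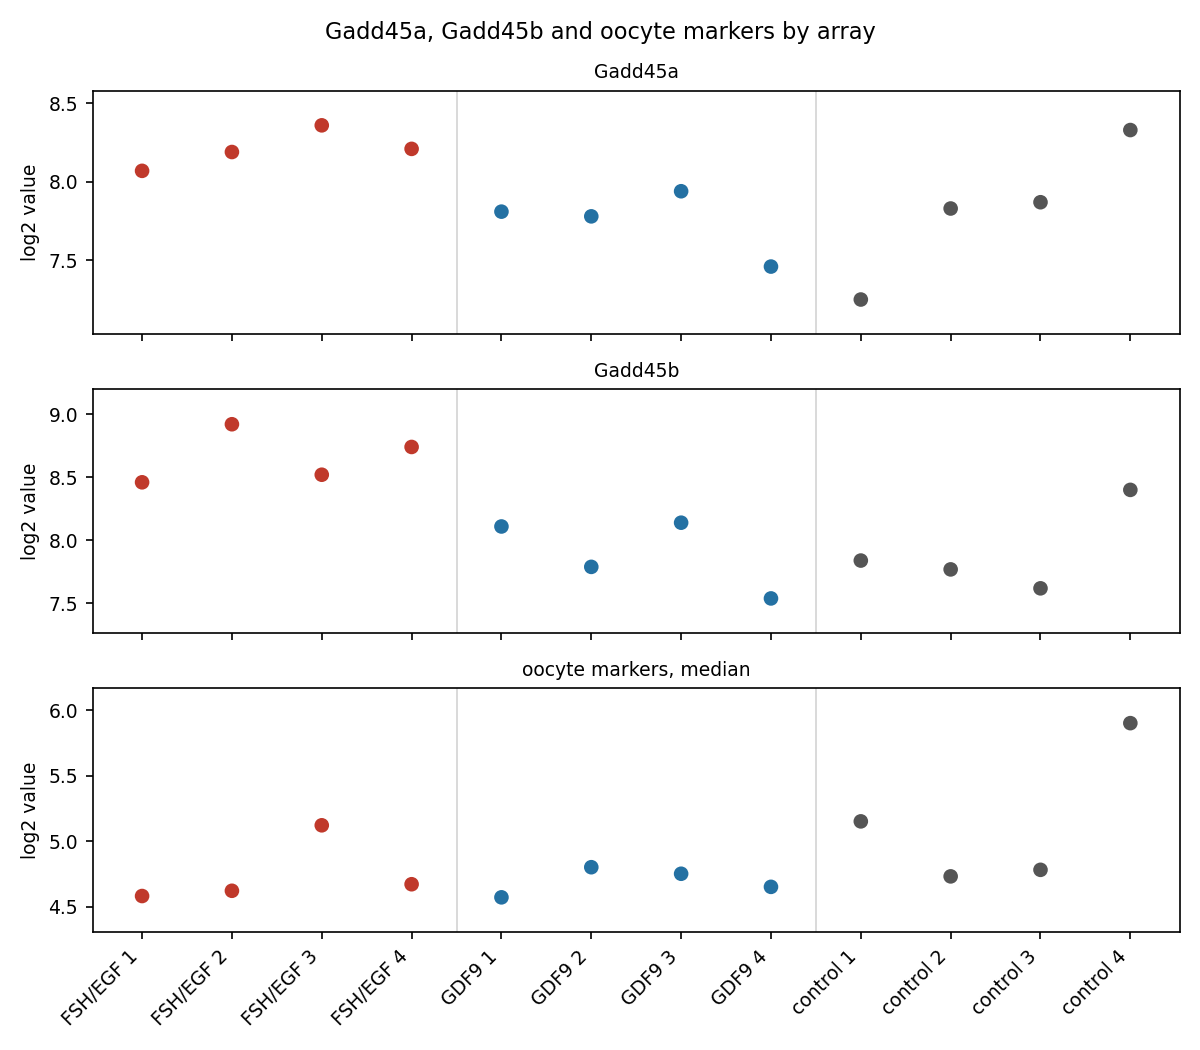
Log2 values of Gadd45a (top), Gadd45b (middle) and the median of 15 oocyte markers (bottom) on each of the 12 arrays, in the order FSH/EGF, GDF9, control, with 1 point per array. Control array 4 is the highest control in all 3 panels, at 8.33, 8.40 and 5.90.

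GDF9 minus control compared cultures given the oocyte factor with those in control medium, in complexes that kept their own oocytes. Of the 9 genes 0 were past limma's threshold, as were 0 of all 35399 rows, so that 0% of rows were called. At an unadjusted p under 0.05 there were 0 of the 9 genes and 4.49% of all rows. The arrays of the groups overlapped for all 9 genes, and they did not overlap for 1.98% of rows. Differences ran from -0.19 to 0.22, and the 95% intervals of the 9 genes lay between -0.47 and 0.64, so that none of them reached a 2-fold change.

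The difference with the smallest p under GDF9 was that of Ccnd2, at 0.18 ± 0.09 (95% interval -0.02 to 0.37, limma adjusted p = 0.971). Ccnd1 was at -0.19 ± 0.11 and Gadd45g at 0.22 ± 0.19, with GDF9 arrays 1 and 2 of Gadd45g above all 4 controls and arrays 3 and 4 among them. Cdkn2c was at 0.14 ± 0.10, Cdkn1c at 0.10 ± 0.10 and Ccnd3 at 0.04 ± 0.08. Gadd45a (-0.07 ± 0.18), Cdkn1b (-0.03 ± 0.11) and Gadd45b (-0.01 ± 0.18) had small negative differences. The signs of these 3 and of Ccnd3 turned in some alternatives, among them leaving out control array 4, which gave 0.10, 0.04 and 0.15 for the 3 and 0.00 for Ccnd3.

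FSH/EGF minus GDF9 compared the 2 treatments directly. It shares its FSH/EGF arrays with the first comparison, so the values are given side by side and not as a second observation. Of the 9 genes 4 were higher and 1 was lower, where 22.5% of all rows (13.6% higher and 8.96% lower) and 29.1% of the genes were called. Ccnd2 was lower by 2.09 on the log2 scale (-2.09 ± 0.09, limma adjusted p = 3.74e-09), and Gadd45g was higher by 1.51 ± 0.19 (limma adjusted p = 7.68e-05). Ccnd3 was at 0.76 ± 0.08, Gadd45b at 0.76 ± 0.18 and Cdkn2c at 0.47 ± 0.10, all past the threshold.

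Gadd45a did not overlap between the 2 treatments, with 8.07 as the lowest FSH/EGF array and 7.94 as the highest GDF9 array. Its difference of 0.46 ± 0.18 (95% interval 0.06 to 0.86) missed the threshold (limma adjusted p = 0.0958). It also missed it in 10 of 12 fits with 1 array left out and in 9 of 12 other alternatives. Among these was renewed quantile normalization, where Gadd45a was at 0.30 (limma adjusted p = 0.287). It passed with the same difference when the spread was estimated without control array 1 (limma adjusted p = 0.0196), without control array 4 (limma adjusted p = 0.0386), or without both (limma adjusted p = 0.00692). It also passed with only the 2 groups in the fit (limma adjusted p = 0.0117) and with array weights (0.47, limma adjusted p = 0.0264). Arrays did not overlap for 26.8% of rows in this comparison. Ccnd1 (-0.08 ± 0.11), Cdkn1b (-0.10 ± 0.11) and Cdkn1c (-0.08 ± 0.10) were not called, and Cdkn1b was at -0.26 after renewed quantile normalization (limma adjusted p = 0.0391).

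**Figure D3:**
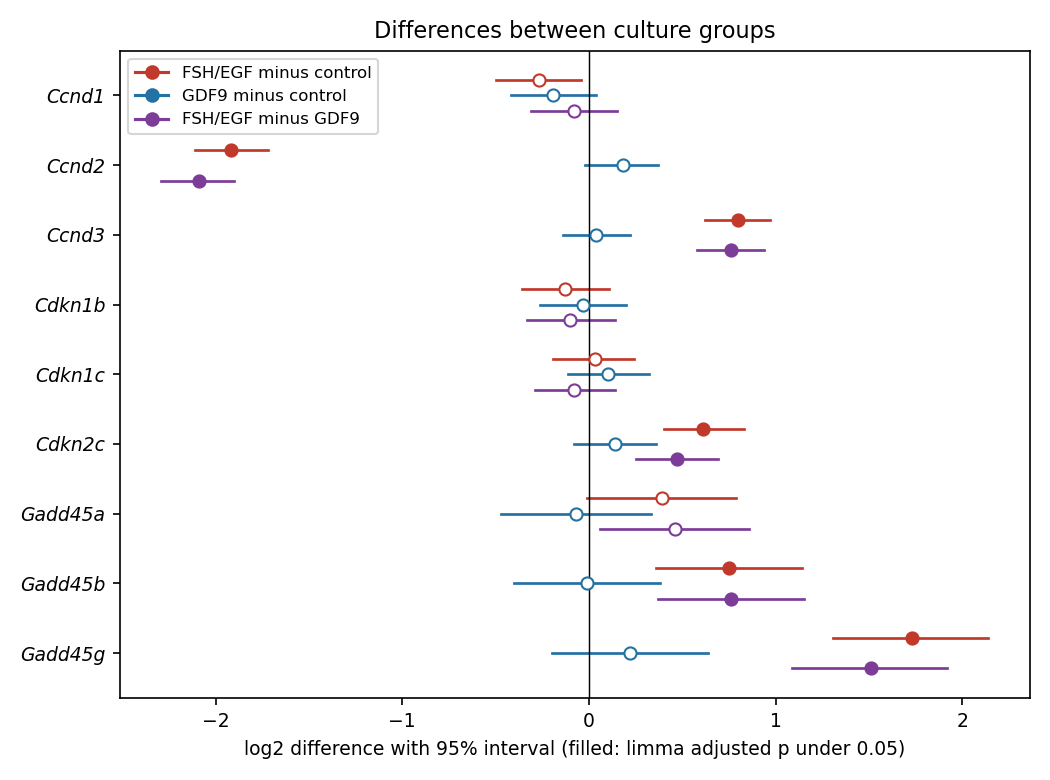
Log2 differences (horizontal axis) of the 9 genes in the 3 comparisons, with 95% intervals from limma as lines. Filled points are past an adjusted p of 0.05: Ccnd2, Ccnd3, Cdkn2c, Gadd45b and Gadd45g in both FSH/EGF comparisons, and 0 genes for GDF9 minus control.

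For the genes called with FSH/EGF, the means of the 3 cultures are set in order here. The tests give no order between GDF9 and control. For Ccnd2 the order from high to low was GDF9 (11.31 ± 0.18, SD, n = 4), control (11.13 ± 0.07) and FSH/EGF (9.21 ± 0.08), and only the step to FSH/EGF exceeded the spread. For Ccnd3 (7.17, 6.41 and 6.37), Cdkn2c (6.10, 5.62 and 5.48) and Gadd45g (8.81, 7.30 and 7.08) the order was FSH/EGF, GDF9, control. For Gadd45b FSH/EGF was highest at 8.66, and GDF9 (7.90) and control (7.91) were nearly level. In these 4 genes GDF9 and control did not differ beyond their spread.

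The rest of the pathway was read from 10 lists holding 118 measured genes of 123. With FSH/EGF 41 of them were higher and 13 lower than in controls, or 45.8% called where 36.8% of all genes were, and the median difference was 0.129, against -0.0719 for all genes. With GDF9 0 of the 118 were called, and the median difference was 0.0694, against -0.0174 for all genes. At an unadjusted limma p under 0.05 there were 6 of the 118, and 4.49% of all rows.

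**Figure D4:**
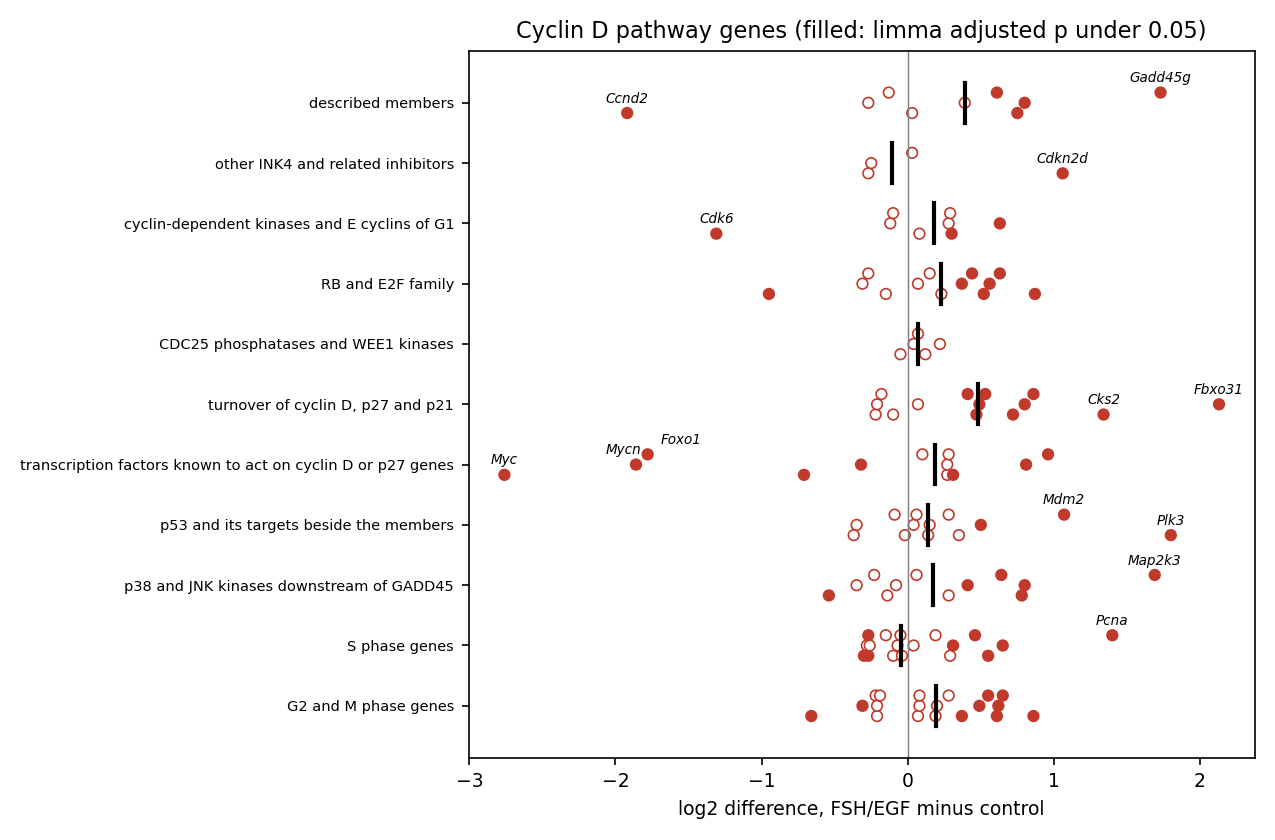
Log2 differences between FSH/EGF and control (horizontal axis) for the 9 genes described and the genes of 10 pathway lists, with 1 point per gene and a black bar at the median of each list. Filled points are past an adjusted p of 0.05 in limma, and called genes with a difference of at least 1 are named, from Myc at -2.76 to Fbxo31 at 2.13.

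The partners of the D-type cyclins differed from each other. Of 8 kinases and E cyclins of G1, 2 rose and 1 fell with FSH/EGF (median 0.181), a share close to the 36.8% of all genes. Cdk6, which encodes a kinase partner of the D cyclins, fell by 1.31 (-1.31 ± 0.10, limma adjusted p = 9.55e-07), to a mean of 7.91 with FSH/EGF, against 9.22 in controls. Cdk4, the other kinase partner, was at -0.10 ± 0.08 and was not called (10.3 and 10.4). Cdk2 rose by 0.63 ± 0.08 and Ccne1, cyclin E1, by 0.30 ± 0.09. The call for Ccne1 was lost without FSH/EGF array 2 (limma adjusted p = 0.067), without control array 3 (limma adjusted p = 0.0701), and after renewed quantile normalization (limma adjusted p = 0.0734).

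Among the 4 other inhibitors listed, Cdkn2d, the INK4 gene of p19, rose by 1.06 ± 0.07 (limma adjusted p = 3.23e-07), while Cdkn2a, Cdkn2b and Cdkn3 were not called (median -0.112). Cdkn2a was at -0.25 ± 0.12 and Cdkn3 at -0.27 ± 0.10, and a second call appeared in 5 alternatives, among them leaving out control array 2 or GDF9 array 2. Of the 13 RB and E2F genes 6 rose and 1 fell (median 0.235). These lists stand beside the 36.8% of all genes called against control. E2f8 (0.87 ± 0.12) and E2f2 (0.63 ± 0.13) were the largest rises, and E2f6 fell by 0.95 (-0.95 ± 0.14). Of 5 CDC25 phosphatase and WEE1 kinase genes 0 were called in limma and 0 had an unadjusted p under 0.05, with a median of 0.0718.

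Of 14 genes of turnover of cyclin D, p27 and p21, 9 were higher and 0 lower with FSH/EGF than in controls (median 0.476), and 7 were higher and 2 lower than with GDF9 (median 0.358). Of all genes, 36.8% were called against control and 29.1% against GDF9. Fbxo31, an F-box protein known to target cyclin D1 after DNA damage, rose by 2.13 ± 0.14, with means of 8.94 with FSH/EGF and 6.81 in controls (limma adjusted p = 1.87e-07). Averaged over its probe sets, Fbxo31 was at 1.26, still past the threshold. Cks2 rose by 1.34 ± 0.16 and Fbxo4, another F-box protein, by 0.86 ± 0.12. Skp2, which recognises p27 for degradation, was at -0.10 ± 0.08 against control and was not called, and it was lower than with GDF9 (-0.28 ± 0.08, limma adjusted p = 0.0292), as was Cul4a (-0.26 ± 0.07, limma adjusted p = 0.0191). Its cofactor Cks1b was at 0.80 ± 0.10 against control and past the threshold.

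Of 12 transcription factors known to act on cyclin D or p27 genes, 5 fell and 3 rose with FSH/EGF (median 0.185), where 36.8% of all genes were called. Myc fell by 2.76 (-2.76 ± 0.21, limma adjusted p = 5.56e-07), to a mean of 6.81 with FSH/EGF, against 9.57 in controls. Mycn fell by 1.86 and Foxo1, a forkhead factor known to induce the p27 gene, by 1.78. Ctnnb1, beta-catenin, was among the risers at 0.81 ± 0.08, and Creb1 was not called at 0.28 ± 0.14.

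The lists around p53 and GADD45 are set beside the 36.8% of all genes called against control and the 29.1% called against GDF9. Of 13 measured genes of the p53 list, with a median of 0.139, 3 rose and 0 fell: Plk3, a stress-responsive polo-like kinase, by 1.80 ± 0.09, Mdm2, which drives degradation of p53, by 1.07 ± 0.14, and Sesn1 by 0.50 ± 0.13. The call for Sesn1 was lost without FSH/EGF array 1 (0.41, limma adjusted p = 0.0501) and without control arrays 1 and 4 (limma adjusted p = 0.0866). Of 12 kinase genes of the p38 and JNK pathways 5 rose and 1 fell (median 0.166), and against GDF9 4 were higher and 2 lower. Map2k3, a kinase that activates p38, rose by 1.69 ± 0.10, Mapk9, which encodes JNK2, by 0.80 ± 0.19 and Map2k6 by 0.78 ± 0.12, while Map3k4, which GADD45 proteins bind, fell by 0.54 (-0.54 ± 0.06, limma adjusted p = 4.13e-05).

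The genes of S phase and of mitosis went both ways. Of 18 S phase genes 5 rose and 3 fell, with a median of -0.0447, where 36.8% of all genes were called. Pcna, the sliding clamp of DNA polymerases and a binding partner of p21 and GADD45, rose by 1.40 ± 0.13 and Tyms, thymidylate synthase, by 0.65 ± 0.09, while the subunits of the replicative helicase went both ways. Mcm4 rose by 0.46 ± 0.09, Mcm3 (-0.27), Mcm5 (-0.27) and Mcm7 (-0.30) fell, and Mcm2 (-0.07) and Mcm6 (-0.10) were not called. Rrm2 was called at 0.55 ± 0.18 (limma adjusted p = 0.0398) and lost its call in 12 alternatives, among them leaving out each FSH/EGF array from 1 to 3 and each control array from 1 to 3. The count of called S phase genes was 8. It was 4 without FSH/EGF array 2, FSH/EGF array 3 or control array 2, and 5 without FSH/EGF array 1. Without control array 4 and FSH/EGF array 3 it was 3. The highest count in any alternative was 11. Of 19 genes of G2 and M phase 7 rose and 2 fell (median 0.192, with 36.8% of all genes called), with Prc1 at 0.86 ± 0.16, Kif20a at 0.65 ± 0.09 and Ccnb2, cyclin B2, at -0.66 ± 0.11. Mki67, the proliferation marker, was at -0.19 ± 0.11 and was not called.

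The genes most like Gadd45g and Ccnd2 across the 12 arrays were found by the root mean square difference after each gene was centred on its own mean. For Gadd45g they were Klf10, a Krüppel-like factor induced early by TGF-beta, at 0.184, Irf2bpl at 0.200 and the ETS factor gene Etv5 at 0.202, where the median over 19937 genes was 0.844. Their differences between FSH/EGF and control were 1.73, 1.65 and 1.80. For Ccnd2 they were Adamtsl2 at 0.109, Large2, a glycosyltransferase gene, at 0.109 and Atrnl1 at 0.132, against a median of 0.937, and their differences were -1.75, -1.86 and -1.91. The 12 arrays fall into FSH/EGF and the rest, and all 6 genes share that step with Gadd45g or Ccnd2.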

How the data were processed

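The deposited table holds log2 expression values that the authors had normalized before deposit, with RMA, Partek and GCOS named in the submitters' processing notes without role or version. The genome build behind the array is not given in the sources used here. It has 35399 rows, and the platform annotation gave 21789 rows 1 symbol, gave 1621 several, and left 11989 unnamed here. Array medians ran from 5.41 to 5.53 and within-group correlations from 0.971 to 0.995, with 0 identical pairs. Arrays give no read depth, and their number limits the precision. Signal over background was not analysed.

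Groups come from the sample titles. limma 3.58.1 (R 4.3.3) was fitted to all 12 arrays with 1 mean per group and moderated variances, with Benjamini-Hochberg adjustment over all rows. The model was checked on simulated data. The genes and lists were chosen with earlier results of these data known, and no p was adjusted over a list. Named pathway genes are up to 3 per list by size among those called with FSH/EGF, and others named beside them were picked with their values known. The 3 genes most like the largest rise and fall follow the same rule table. Promoter sequences are from RefSeq (GRCm38.p6). Alternatives were other variance models, array weights, only the groups compared, no dim rows, 2 renewed scalings, probe set means, a replicate block and arrays left out.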

Additional observations from a re-analysis of the deposited data

Results flagged for a closer look

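Of 120 groups of 4 arrays checked, over 40 named genes, 1 held an array far from the other 3, where chance gives about 1 in 20 groups. Atrnl1 on control array 1 was at 9.53, against 9.79 to 9.84 on the other controls. Among the 27 groups of the 9 genes themselves the count was 0.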

How the results depend on the processing

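With FSH/EGF, 5 of the 9 genes were called against control in the reported fit, 5 to 7 when 1 array was left out, and 5 to 6 in the other alternatives. Against GDF9 it was 5, with 5 to 6 in both kinds of alternative. Each of Ccnd2, Ccnd3, Cdkn2c, Gadd45b and Gadd45g kept its call in all 24 alternatives of both FSH/EGF comparisons. The highest limma adjusted p was 0.0395, for Gadd45b against control after renewed quantile normalization. The count for GDF9 minus control was 0 in every alternative, and over all rows it was 0 to 1 when 1 array was left out. The sign of Cdkn1c with FSH/EGF turned under renewed quantile normalization (-0.03), without control arrays 1 and 4 (-0.01), and without control array 4 and FSH/EGF array 3 (-0.02, an alternative chosen after seeing the data). For GDF9 minus control, Gadd45b turned to 0.02 with array weights, 0.03 with equal medians, 0.20 without control arrays 1 and 4, and 0.15 without control array 4 and FSH/EGF array 3. Cdkn1b turned to 0.01 with equal medians, probe set means or no control arrays 1 and 4. Without control array 4 and FSH/EGF array 3 it was 0.04, Gadd45a 0.10 and Ccnd3 0.00. With 1 array left out, Cdkn1c ran from -0.03 to 0.06 with FSH/EGF against control and from -0.15 to 0.01 against GDF9, and Ccnd1 from -0.17 to 0.00 against GDF9. For GDF9 minus control, Ccnd3 ran from -0.01 to 0.11, Cdkn1b from -0.08 to 0.06, Gadd45a from -0.26 to 0.10 and Gadd45b from -0.11 to 0.15. The causes were not tested. With a replicate block 5, 0 and 5 of the 9 genes were called in the comparisons FSH/EGF minus control, GDF9 minus control and FSH/EGF minus GDF9, and the called S phase genes numbered 4 in place of 8. The block changed no call of the 9 genes, and nothing in the labels says that a replicate number marks a shared day or animal. Deviations of same-numbered arrays correlated from -0.142 to 0.184 between FSH/EGF and control, from -0.389 to 0.221 between GDF9 and control, and from -0.0695 to 0.212 between FSH/EGF and GDF9. With 4 arrays a group these correlations cannot decide whether the numbers pair the samples. Over all rows 57% of calls were higher with FSH/EGF than in controls, 71.9% with equal medians and 52.4% after renewed quantile normalization.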
